A study of Neurospora crassa with 24 samples.

Results

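Dark conidiation of *N. crassa* without *ve-1* was described from 6 of the 24 RNA-seq libraries of the series, chosen by their labels. Aerial tissue of cultures induced to conidiate for 15 h without light (A15) had 2 libraries. The starting point (S), mycelia from 24 h of submerged culture, also dark, had 4. All 6 came from a strain with *ve-1* deleted in the OR74A background, and none was exposed to light. The wild-type strain OR74A, with 2 libraries of A15 and 4 of S in the dark, served for the check of the deletion and for the test of whether a change differed between the strains. All tests came from 1 fit of 16 libraries, these 12 and the 4 of A15 of both strains grown in light, which share 1 estimate of the spread. A15 is a mix of aerial hyphae and developing conidia that grew through filter paper from mycelia placed on solid medium, whereas S is a shaken liquid culture. The stage, the medium, the contact with air and the age of the culture therefore cannot be told apart in A15 against S. The tissue label of every library reads mycelia, and the labels do not say whether the replicates came from separate cultures. The methods speak of independent biological replicates for RNA quantification in general, without naming the sequencing. The *P* values rest on the spread between replicates in the fit of 16 libraries, and part of that spread may be technical. The study lists Δ*ve-1* strains of both mating types, and which of them gave the RNA is not stated in the sources used here.

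VE-1 is a protein of the velvet complex, in which it joins VE-2 and the methyltransferase LAE-1 to regulate development and secondary metabolism in filamentous fungi. In *N. crassa*, macroconidiation starts when a submerged mycelium meets air: hyphae rise from the surface, constrict into chains of proconidia and separate into orange spores coated with a hydrophobin. The zinc cluster transcription factor FL is the main regulator of this path, and the *con* genes were isolated for mRNAs that accumulate while conidia form.

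The libraries of A15 held 14697083 and 16753462 counts, and those of S between 14010994 and 16919386. Of 9758 genes in the table, 8239 passed the filter on low counts and were tested. mRNA accumulation is given in CPM, the counts of a gene scaled to the same library total in every library after TMM, where 3 counts, at or under which a gene was taken as not seen, were worth 0.176 to 0.26 CPM in the 6 libraries. Replicates correlated across genes, in log CPM, with *r* = 0.92 for the pair of A15 and between 0.913 and 0.979 for the pairs of S. S replicate 1 stood apart: it had the lowest scaling factor (0.682) and the 2 lowest correlations among S.

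The deleted gene was checked first. In the mutant, *ve-1* (chromosome II, 2607929 to 2611456 of NC12) was at 18.6, 1.33, 3.33 and 1.29 CPM in S replicates 1 to 4 and at 1.59 and 2.9 in A15, against a mean of 86.2 CPM in S of the wild type. The 215 counts in S replicate 1 corresponded to 21.6% of the wild-type level, whereas the other 5 libraries were at most at 3.87% of it. How much of the exons counted for *ve-1* lies outside the deleted part is not given in the sources used here. The source of the 215 counts in S replicate 1 was not tested. The 6 markers of aerial and conidiating tissue were *con-6*, *con-8*, *con-10*, *con-13*, *eas* and *fl*. Their summed level was between 59 and 527 CPM in S and at 156638 and 183628 CPM in A15. Most of the sum in every library came from *eas* alone, at 149973 and 177101 CPM in A15. Of the 6, only *con-13* was at 0 in any library, S replicate 3. The 4 fruiting body markers summed to 41.4 to 62.1 CPM in S and to 92.1 and 144.8 CPM in A15. Of these, *asd-3* was at 0 in S replicates 1 and 2 and *fmf-1* was at 0 in every library except A15 replicate 1.

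A15 differed from S in 969 genes, called where the adjusted *P* value was under 0.001 and the log2 fold change (log2FC, A15 over S) was 2 or more in size. Of these, 764 rose (9.27% of the genes tested) and 205 fell (2.49%). The 6 libraries did not overlap between the stages for any of the 969, a separation that 27.8% of all genes showed upward and 23% downward. The genes that rose had a median log2FC of 4.32 and the genes that fell one of −2.83, against a median of 0.10 over all genes tested. Together, the genes that rose took 36.7% and 31.9% of the counts in the 2 libraries of A15 and at most 1.08% in any library of S. Without the single gene *eas*, these shares were 19.4% and 16.9% in A15 and at most 1.04% in S. The genes that fell took between 8.84% and 13.7% of the counts in S, and 1.41% and 1.21% in A15. In bulk tissue, fewer cells of a type and less RNA per cell cannot be told apart. Without S replicate 1, 805 genes rose and 202 fell. Of the 764 genes that rose, 572 were still called without S replicate 3. The genes that fell depended more on single libraries. Of the 205, 46 were still called without A15 replicate 1, 36 without A15 replicate 2 and 120 without S replicate 3, although all kept a negative log2FC. With edgeR on only the 6 libraries compared, 320 genes rose and 21 fell.

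**Figure D1:**
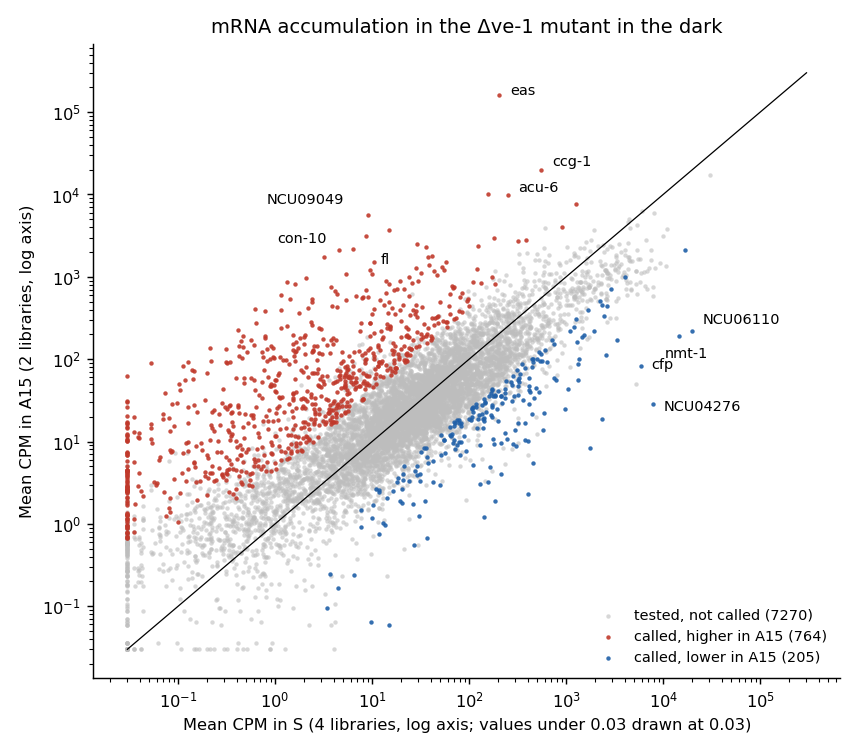
Mean CPM of each tested gene in S (4 libraries, horizontal log axis) and in A15 (2 libraries, vertical log axis) of dark cultures of Δ*ve-1*. The 764 genes called higher in A15 lie above the line of equal values and the 205 called lower lie below it, and *eas* stands at the top of the vertical axis.

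Of the 14 regulators of conidiation, 7 rose, against 9.27% of all genes tested, none fell and 7 did not pass the test, with a median log2FC of 1.90. With edgeR on only the 6 libraries compared 3 of them were called, and with S replicates 1 and 2 only, 4. The regulator gene *fl* (chromosome II, 3805777 to 3809265) was at 17.1, 6.91, 7.75 and 6.39 CPM in S and at 1141 and 1306 CPM in A15. It rose in both libraries of A15 far beyond the spread of S (log2FC 7.01, standard error 0.57, adjusted *P* = 4.36e-07). *acon-3*, which is required for the growth of conidiophores and acts upstream of *fl*, was at 1.65, 4.67, 1.58 and 1.8 CPM in S and at 639 and 433 CPM in A15, the largest increase of the list (log2FC 7.77, standard error 0.68, adjusted *P* = 8.59e-07). *csp-1*, a transcription factor gene needed for the separation of conidia and controlled by the clock, increased from a range of 37.7 to 63.4 CPM in S to 689.8 and 1416 CPM (log2FC 4.49, standard error 0.56, adjusted *P* = 2.29e-05). *csp-2*, the other gene known from mutants that do not separate conidia, encodes a Grainyhead-type transcription factor and rose less, to 545 and 486 CPM from 78.4 to 129 (log2FC 2.45, standard error 0.35, adjusted *P* = 7e-05). Among the regulators that rose, the libraries of A15 disagreed most for *rca-1*, which encodes a Myb-type protein related to FlbD of *Aspergillus nidulans*. It was at 155 and 697 CPM in A15, both above the 22.6 to 43.6 CPM of S, and its call (log2FC 3.71, standard error 0.52, adjusted *P* = 7e-05) was lost without A15 replicate 2.

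The remaining regulators that rose were *ada-6*, a transcription factor gene (log2FC 2.69), and *acon-2*, another gene required for the early steps of conidiophore formation (log2FC 2.39). The call of *ada-6* was lost when either library of A15, or S replicate 3 or 4, was left out. *vib-1*, a transcription factor gene known for its role in heterokaryon incompatibility and conidiation, was at 50.2, 76.7, 100.2 and 85.2 CPM in S and at 28.4 and 39.7 CPM in A15. Both libraries of A15 lay below all of S, but the difference did not pass the test (log2FC −1.20, standard error 0.59, adjusted *P* = 0.11).

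**Figure D2:**
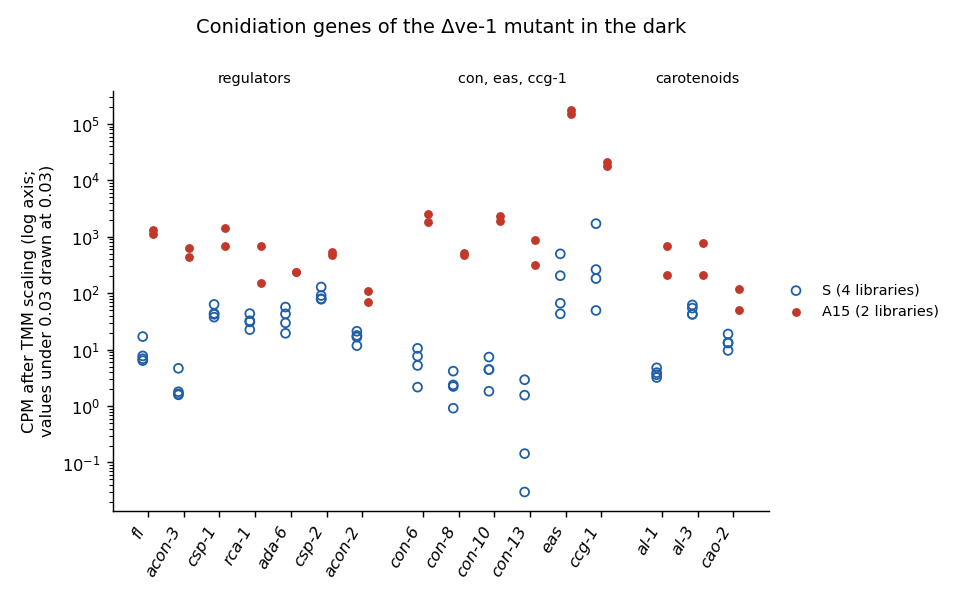
CPM after TMM scaling (log axis) of regulators of conidiation, *con* genes, *eas*, *ccg-1* and carotenoid genes in each library of S (open circles) and A15 (filled circles) of dark cultures of Δ*ve-1*, with values under the axis minimum drawn at it. The filled circles lie above the open ones for every gene shown, from *acon-2* with a log2FC of 2.39 to *eas* with 9.65.

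Among the *con* genes, the hydrophobin gene and the clock-controlled genes, 6 of 9 rose, against 9.27% of all genes tested, and none fell. The gene with the most counts was *eas*, which encodes the hydrophobin of the rodlet layer on conidia. It was at 205, 499.8, 43.2 and 66.5 CPM in S and at 149973 and 177101 CPM in A15, where its reads were 17.4% and 14.9% of all counts (log2FC 9.65, standard error 1.00, adjusted *P* = 3.91e-06). The small genes *con-10* and *con-13* are neighbors on chromosome IV, at 4364944 to 4365763 and 4367319 to 4368460. *con-10* was at 4.42, 7.39, 1.83 and 4.45 CPM in S and at 2351 and 1882 CPM in A15 (log2FC 8.86, standard error 0.68, adjusted *P* = 2.76e-07), and *con-13* was at 1.56, 2.93, 0 and 0.144 CPM in S and at 867 and 319 CPM in A15 (log2FC 8.98, standard error 1.01, adjusted *P* = 8.12e-06). Both were nearly silent in S, and for both A15 replicate 1 was the higher library. *con-6* (log2FC 8.39) and *con-8* (log2FC 7.68) were at or under 10.6 CPM in every library of S and at 469 CPM or more in A15. *ccg-1*, a clock-controlled gene that is repressed by glucose, rose to 18074 and 21526 CPM (log2FC 5.16, standard error 0.93, adjusted *P* = 0.00053), but it varied in S between 49.6 and 1714 CPM, with the highest value in S replicate 1, and its call was lost when either library of A15 or S replicate 2 or 3 was left out. The members that did not pass the test were *ccg-6*, *ccg-9* and *ccg-14*.

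Carotenoid biosynthesis gives conidia their orange color. Of its 5 genes, 3 rose in the dark, against 9.27% of all genes tested. These were *al-1*, which encodes phytoene desaturase (log2FC 6.84), and *al-3*, which encodes geranylgeranyl diphosphate synthase (log2FC 3.30). The third was *cao-2*, which encodes the oxygenase that cleaves torulene (log2FC 2.63). *al-1* was between 3.21 and 4.77 CPM in S and at 681 and 209 CPM in A15. *al-2*, which encodes phytoene synthase and carotene cyclase, had a similar log2FC to *cao-2* (2.52) but an adjusted *P* value of 0.00131, above the threshold. A15 replicate 1 was the higher library for *al-1*, *al-2* and *al-3*, and A15 replicate 2 for *cao-2*. Without its higher library, neither *al-3* nor *cao-2* was called. *tnr-1*, which encodes a tetrahydroxynaphthalene reductase of melanin synthesis, is not in this list. It rose from 0.287 to 1.91 CPM to 63.3 and 49.3 CPM (log2FC 5.78, standard error 0.53, adjusted *P* = 1.22e-06).

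Ranked by mean CPM, which is not corrected for gene length, the first 10 genes of A15 were *eas*, *ccg-1*, *tef-1*, NCU08949, *acu-6*, *acw-6*, *pma-1*, *hex-1*, NCU09049 and *ccg-15*. NCU08949 and NCU09049 encode hypothetical proteins. NCU09049 was at 9.88, 18.8, 2.5 and 4.74 CPM in S and at 4754 and 6592 CPM in A15 (log2FC 9.30, standard error 0.71, adjusted *P* = 2.78e-07), and NCU08949 went from 35.9 to 373 CPM to 7789 and 12673 CPM (log2FC 6.02, standard error 0.71, adjusted *P* = 1.34e-05). Both rose without overlap, whereas *tef-1*, the elongation factor gene, *pma-1*, the plasma membrane ATPase gene, *hex-1*, which encodes the Woronin body protein, and *ccg-15* overlapped between the stages and were not called. *hex-1* overlaps NCU16405 on the same strand, so that the counts of these genes may be shared. In S, the first 10 were *tef-1*, NCU06110, NCU16635, *nmt-1*, *aac*, NCU03738, *gpd-1*, NCU05804, *cyh-2* and *hex-1*, of which NCU06110, NCU16635 and *nmt-1* fell. The call of NCU16635 was lost without either library of A15 or S replicate 3.

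The wall of the hypha is rebuilt as conidia bud and separate. Of the 19 tested genes for wall synthesis and remodeling, 4 rose, against 9.27% of all genes, and none fell. These 4 encode enzymes that cut or rejoin wall polymers, and the glucan synthase gene *gls-1* and all 7 chitin synthase genes were not called. The chitinase gene *gh18-4* was at 0.78, 3.42, 0.833 and 0.647 CPM in S and at 752 and 318 CPM in A15 (log2FC 8.53, standard error 0.74, adjusted *P* = 7.26e-07). The other members that rose were *cgl-1*, a β-1,3-glucanase gene (log2FC 5.13), *gel-5*, a gene of the β-1,3-glucanosyltransferase family (log2FC 4.37), and the chitinase gene *gh18-7* (log2FC 2.48). A further chitinase gene, *gh18-11* (NCU12033), had no counts in any library of S. It was at 12.3 and 11.3 CPM in A15, at least 45.4-fold higher by their mean. Among 17 genes for proteins of the cell wall, a list made after the values were seen, 4 rose, against 9.27% of all genes. The log2FC of the 17 ran from −2.29 to 5.37, with a median of 0.31. Those that rose were *ncw-6* (log2FC 5.37), *ncw-4* (log2FC 4.05), *acw-6* (log2FC 2.59) and *acw-5* (log2FC 2.17). *ncw-4* was the most even of them, at 224, 140.2, 175 and 184 CPM in S and at 2581 and 3399 CPM in A15. The call of *acw-5* was lost without A15 replicate 2 or any of the libraries of S, and that of *acw-6* without A15 replicate 2 or S replicate 3. The list of glycoside hydrolases that modify mannans was also made after the values were seen. Of its 13 tested genes, 3 rose, against 9.27% of all genes, and the median log2FC was 0.43. The largest rise was that of *gh47-5* (log2FC 8.64), which was at or under 0.907 CPM in S and at 190.0 and 74 CPM in A15. *gh47-2* rose too (log2FC 3.76), and the third member, *gh76-3*, lost its call (adjusted *P* = 0.000847) without any library other than S replicate 1.

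Enzymes that remove hydrogen peroxide accumulate in conidia. Of 7 genes for catalases, superoxide dismutases and cytochrome *c* peroxidase, the catalase genes *cat-1*, *cat-2* and *cat-4* rose, against 9.27% of all genes tested. The other 4 did not pass the test. *cat-1*, which encodes the catalase known to be abundant in conidia, was at 68, 28.5, 34.7 and 12.1 CPM in S and at 1875 and 2667 CPM in A15 (log2FC 5.99, standard error 0.75, adjusted *P* = 2.42e-05). *cat-2*, which encodes a catalase-peroxidase, was nearly constant within each stage, between 2.23 and 3.09 CPM in S and at 138 and 148 CPM in A15 (log2FC 5.72, standard error 0.51, adjusted *P* = 1.08e-06). *cat-3*, which encodes the catalase of growing hyphae, was at 6.67, 3.42, 15.5 and 11.3 CPM in S and at 2.88 and 5.73 CPM in A15, and its stages overlapped. The trehalase gene *tre-1*, whose product splits the storage sugar of spores, was the only gene of 8 for trehalose and glycogen that rose, a share near the 9.27% of all genes. It went from 0.667 to 6.07 CPM to 138 and 375 CPM (log2FC 6.73, standard error 0.88, adjusted *P* = 3.52e-05). Of 9 genes for photoreceptors and the clock, 1 rose in the dark, also a share near the 9.27% of all genes. It was *nop-1*, which encodes an opsin (log2FC 7.16, standard error 0.57, adjusted *P* = 3.97e-07), and went from at most 1.65 CPM in S to 120.1 and 92.2 CPM. At an adjusted *P* value under 0.05 the number of this list that was higher was 5, against 15% of all genes tested. The photoreceptor genes *vvd* and *cry* were among these, with *cry* at 2.6, 1.4, 7.08 and 10.5 CPM in S and at 49.4 and 53.7 CPM in A15 (log2FC 3.25, adjusted *P* = 0.0111).

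The genes with the largest log2FC were nearly all at 0 in S. By the rule for named genes, these were NCU09831, *gh43-1* (NCU00852), NCU07918, NCU04471, NCU08095, NCU05093, NCU05098, NCU00849, *gh18-11*, NCU05859, NCU05596 and NCU06823. All 12 had at most 3 counts in every library of S, so each increase is a lower bound set by the depth. The folds given take the mean of A15 as the higher value. *gh43-1* encodes an endo-arabinase, and it was at 10.4 and 41.7 CPM in A15, at least 100.2-fold higher than in S. NCU05859 (chromosome VII, 4083979 to 4086497) was at 83.7 and 95.9 CPM in A15, at least 345-fold higher than in S. NCU07918 (chromosome IV, 1358677 to 1360886) was at 45.4 and 78.1 CPM, at least 238-fold higher, and NCU09831 at 29 and 31.3 CPM, at least 116-fold higher. All 3 encode hypothetical proteins in the study's annotation. The libraries of A15 differed widely for NCU04471, at 2.53 and 32.1 CPM, NCU05098, annotated as a phosphatidylserine decarboxylase gene, at 1.29 and 28.8 CPM, and NCU05596, at 19 and 2.19 CPM. NCU05098 was not called without A15 replicate 2, and NCU05093, the gene *met-19*, was not called whichever library was left out. In all, 19 genes were at or under 3 counts in every library of S and at 10 CPM or more in both libraries of A15. No gene showed the reverse.

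Genes for the uptake and use of sugars were among those that rose. Of 12 genes for plant cell wall degradation, 5 rose, against 9.27% of all genes tested, and none fell, with a median log2FC of 2.53. The regulator gene *xlr-1*, which activates genes for xylan use, was among those that rose (log2FC 4.38, standard error 0.53, adjusted *P* = 1.72e-05). The cellodextrin transporter gene *cdt-2* was at or under 1.19 CPM in S and at 295 and 91 CPM in A15 (log2FC 7.92, standard error 0.60, adjusted *P* = 2.76e-07). The call of *gh6-2*, a cellobiohydrolase gene (log2FC 3.40), was lost without either library of A15 or S replicate 3. Of 4 sugar transporter genes, *hgt-1*, which encodes a high-affinity glucose transporter, was at 1.91, 22.8, 2.5 and 8.98 CPM in S and at 208 and 926 CPM in A15 (log2FC 5.96, standard error 0.95, adjusted *P* = 0.000191). Its call was lost without A15 replicate 2. The arabinose transporter gene *lat-1* was at or under 0.347 CPM in S and at 61.6 and 22.7 CPM in A15. The low-affinity glucose transporter gene *glt-1* and the glucose sensor gene *rco-3* were not called.

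Genes of central metabolism changed in opposite directions. Of 7 genes for acetate use and gluconeogenesis, a list made after values were seen, 3 rose and none fell. The median log2FC was 1.99, and 9.27% of all genes tested rose. *acu-6*, which encodes phosphoenolpyruvate carboxykinase, the entry step of gluconeogenesis, was at 55.7, 272, 184 and 487 CPM in S and at 14528 and 4916 CPM in A15 (log2FC 5.28, standard error 0.71, adjusted *P* = 4.28e-05). *fbp-1*, which encodes fructose-1,6-bisphosphatase, the later step that is specific to gluconeogenesis, rose from a narrow range of 23.5 to 32.1 CPM to 659.9 and 248 CPM (log2FC 4.01, standard error 0.36, adjusted *P* = 1.12e-06). *acu-9*, which encodes malate synthase of the glyoxylate cycle, was at 124, 260.1, 348 and 548 CPM in S and at 3984 and 1513 CPM in A15 (log2FC 3.10, standard error 0.48, adjusted *P* = 0.000144). For all 3 genes A15 replicate 1 was the higher library, by more than 2 times, and the call of *acu-9* was lost without it. *acu-3*, which encodes isocitrate lyase, the other enzyme of this cycle, had a log2FC of 1.99 and did not pass the test (adjusted *P* = 0.00691).

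Of 10 genes for glycolysis and pyruvate decarboxylation, a list made after the values were seen, 5 fell and none rose. The median log2FC was −3.18, and 2.49% of all genes tested fell. *cfp*, which encodes pyruvate decarboxylase, was at 3390.2, 3858, 8509.5 and 7761 CPM in S and at 57.7 and 108 CPM in A15 (log2FC −6.15, standard error 0.71, adjusted *P* = 1.16e-05). The other members that fell were *emp-1*, annotated as hexokinase (log2FC −2.29), *fba*, which encodes aldolase (log2FC −2.90), *emp-6*, phosphoglycerate mutase (log2FC −3.89), and *ace-8*, pyruvate kinase (log2FC −3.74). All 10 members had a negative log2FC, and 8 passed a looser threshold of an adjusted *P* value under 0.05, which 6.54% of all genes passed downward. Only *cfp* held its call without A15 replicate 1 and without A15 replicate 2, and without S replicate 3 or S replicate 4 the number called lower was 2, and it was 1 with edgeR on only the 6 libraries compared. The call of *ace-8* (adjusted *P* = 0.000987) was lost whichever library was left out. *emp-7*, the enolase gene, was at 7972, 4045, 13403 and 5891 CPM in S, with S replicate 3 the highest, and at 454 and 727 CPM in A15, and it did not pass the test (adjusted *P* = 0.00125).

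**Figure D3:**
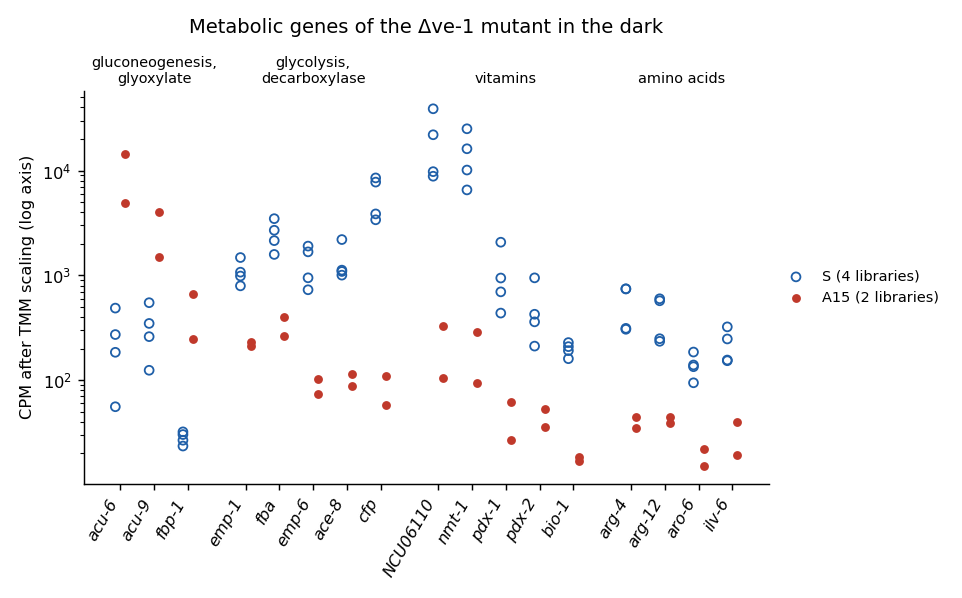
CPM after TMM scaling (log axis) of genes for gluconeogenesis and the glyoxylate cycle, glycolysis and pyruvate decarboxylase, vitamins and amino acids in each library of S (open circles) and A15 (filled circles) of dark cultures of Δ*ve-1*. The filled circles lie above the open ones for *acu-6*, *acu-9* and *fbp-1* and below them for the other 14 genes.

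Several genes for the synthesis of vitamins fell. In a list of 19 genes picked by symbol after the values were seen, 6 fell and none rose. The median log2FC was −1.91, and 2.49% of all genes tested fell. The thiamine genes NCU06110, annotated as a thiazole biosynthetic enzyme, and *nmt-1* together took between 1.39% and 4.36% of all counts in S, and 0.0717% and 0.0168% in A15. NCU06110 was at 38881, 8832, 21966 and 9766 CPM in S and at 332 and 105 CPM in A15 (log2FC −6.51, standard error 1.08, adjusted *P* = 0.000274). *nmt-1* was at 25052, 6537, 16147 and 10118 CPM in S and at 288 and 93.7 CPM in A15 (log2FC −6.25, standard error 0.95, adjusted *P* = 0.000138). The 2 genes varied together within S, with S replicates 1 and 3 high for both. The vitamin B6 genes *pdx-1* and *pdx-2*, neighbors on chromosome IV, fell as well (log2FC −4.56 and −3.45), as did the biotin synthase gene *bio-1*, which was at 228, 191, 209 and 160.2 CPM in S and at 18.6 and 16.8 CPM in A15 (log2FC −3.47, standard error 0.45, adjusted *P* = 2.93e-05). *pan-4* was the sixth member that fell. The number called lower was 1 without A15 replicate 1 and 0 without A15 replicate 2, and it was 1 with edgeR on only the 6 libraries compared.

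A list of 60 genes with symbols of amino acid mutants, also made after the values were seen, held 15 genes that fell, 1 that rose and 44 that did not pass the test, with a median log2FC of −1.69, where 2.49% of all genes fell. Some symbols of this list name regulators or transporters rather than enzymes. Arginine genes had 4 of the falls: *arg-4* (log2FC −3.72), *arg-10*, *arg-12* and *arg-5*. *arg-12*, which encodes ornithine carbamoyltransferase, was at 235, 248, 598 and 572 CPM in S, with replicates 3 and 4 above replicates 1 and 2, and at 44.5 and 38.8 CPM in A15 (log2FC −3.31, standard error 0.52, adjusted *P* = 0.000185). *aro-6*, which encodes an enzyme of the first step of the aromatic pathway, was at 185, 94.3, 139 and 134 CPM in S and at 15.2 and 22 CPM in A15 (log2FC −2.89, standard error 0.36, adjusted *P* = 1.99e-05). The branched-chain amino acid genes *ilv-2*, *ilv-4* and *ilv-6* fell together, with *ilv-6* at a log2FC of −2.90. The gene that rose was *cys-16*, which went from 36.9 to 72.5 CPM to 619.9 and 2022 CPM. The number of the list called lower was 2 without A15 replicate 1, 8 without A15 replicate 2, 6 without S replicate 3 and 8 without S replicate 4. It was 0 with edgeR on only the 6 libraries compared and 18 with DESeq2 on the 16. The purine genes *ad-3A* and *ad-9* fell (log2FC −3.49 and −2.95), and neither was called without A15 replicate 1 or without A15 replicate 2.

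The largest falls by the rule for named genes were, in order, NCU04276, NCU09165, NCU16673, NCU07352, NCU01546, NCU01347, NCU06911, NCU06110, NCU08228, *nmt-1*, *cfp* and NCU00149. NCU04276 (chromosome V, 5467674 to 5469105), which encodes a hypothetical protein, was at 9441, 6801, 6947 and 7860.4 CPM in S and at 15.6 and 41.2 CPM in A15 (log2FC −8.10, standard error 0.88, adjusted *P* = 6.32e-06). The ratio of its highest to its lowest library of S was the smallest among these 12 genes. NCU08228, annotated as a glucose dehydrogenase gene, was at 309.9, 381, 537 and 595 CPM in S and at 6.41 and 4.6 CPM in A15 (log2FC −6.37, standard error 0.64, adjusted *P* = 3.02e-06). The call of NCU09165 was lost when either library of A15 or S replicate 2, 3 or 4 was left out, those of NCU06110 and *nmt-1* without either library of A15, and that of NCU16673 without A15 replicate 2. Of 12 genes for G protein, cAMP and NADPH oxidase signaling, 1 fell and none rose, where 2.49% of all genes tested fell. It was *nox-2*, an NADPH oxidase gene needed for the germination of ascospores. *nox-2* fell from 175 to 773 CPM to 33.1 and 24.6 CPM (log2FC −3.84, standard error 0.62, adjusted *P* = 0.000225), with no call without either library of A15. Of the 2 alternative oxidase genes listed, *aod-1*, whose product bypasses part of the respiratory chain, fell from 388 to 1360.0 CPM to 81.5 and 31.2 CPM (log2FC −3.79, standard error 0.59, adjusted *P* = 0.000163). It had no call without A15 replicate 2. The other, *aod-3*, was not called (log2FC 1.04).

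Other groups had no gene called in the edgeR fit of 16 libraries, although some alternatives called a few. The lists below for respiratory complex I, the proteasome, peroxisomes and the COP9 signalosome were made after the values were seen. All 29 genes for respiratory complex I had a negative log2FC, between −2.92 and −0.74, and none was called at an adjusted *P* value under 0.001, while 5 passed at 0.05. Of 30 proteasome genes none was called either, with a median log2FC of −1.19. The 7 genes listed for cytosolic ribosomal proteins, only those with a *crp* symbol and a number, ranged from −2.53 to −0.97 with no call. For example, *crp-5* was at 7422, 3529.8, 3524 and 1901 CPM in S and at 427 and 994 CPM in A15 (adjusted *P* = 0.00151). Among 10 genes for nitrogen assimilation, the nitrite reductase gene *nit-6* was at 448, 195, 674 and 283 CPM in S. It was at 9.81 and 3.82 CPM in A15 and did not pass the test (adjusted *P* = 0.0017). The same fit called no gene among 7 histone genes, 9 heat shock genes, 14 cell fusion genes, 20 peroxisome genes, 7 genes of the COP9 signalosome or the 4 genes of heterokaryon incompatibility. DESeq2 on the same libraries called 5 genes of complex I and 2 of the 7 *crp* genes lower in A15. It also called 4 genes for nitrogen assimilation and 1 cell fusion gene lower, and 3 proteasome genes, 1 higher and 2 lower. With edgeR on all 24 libraries, 5 genes of complex I and 2 of the 7 *crp* genes were lower. In that fit 3 genes for nitrogen assimilation and 1 cell fusion gene were lower and 1 proteasome gene was higher. Without A15 replicate 1, 3 genes of complex I, 1 peroxisome gene and 1 gene of the COP9 signalosome were called lower.

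**Figure D4:**
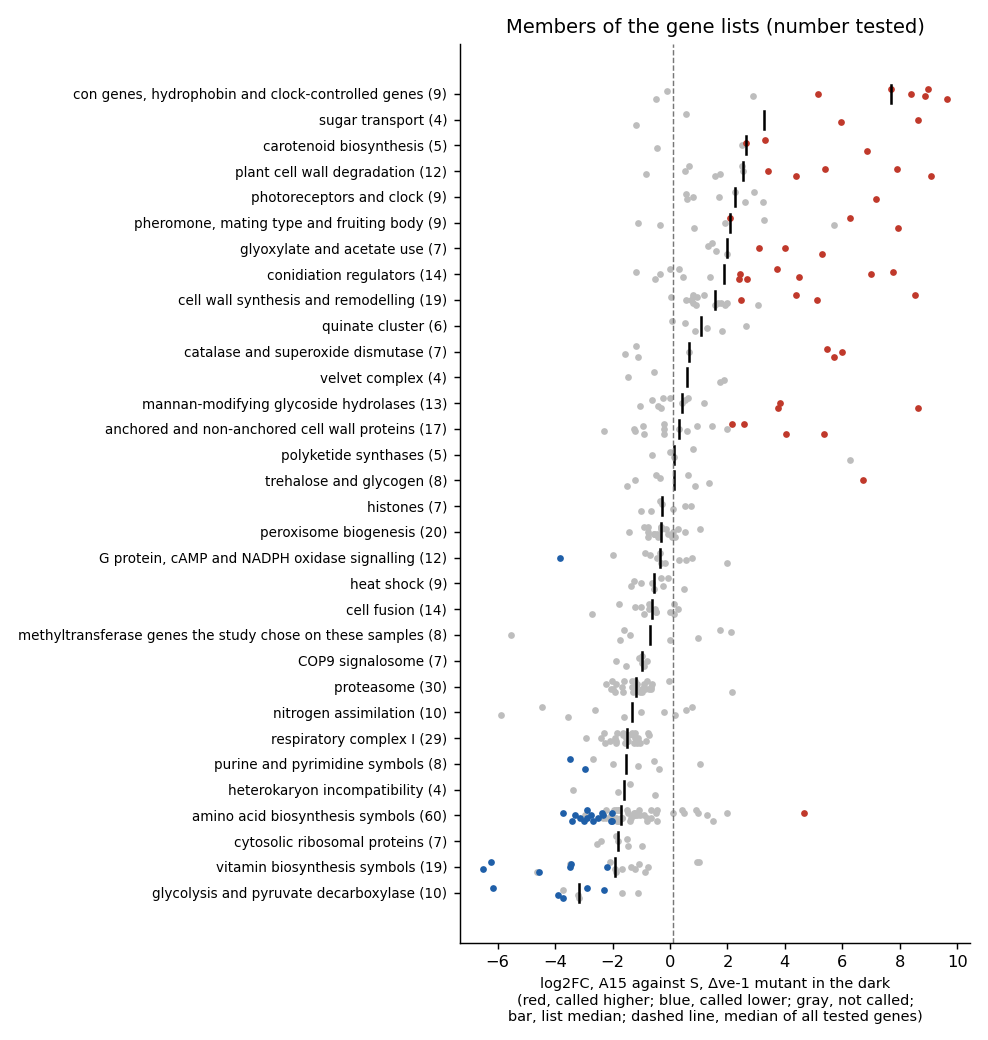
The log2FC of A15 against S in dark cultures of Δ*ve-1* (horizontal axis) for each tested member of the gene lists, with the list median as a bar and the median of all tested genes, 0.10, as a dashed line. By its median, the *con* list lies farthest to the right, and the list for glycolysis and pyruvate decarboxylase, made after the values were seen, farthest to the left.

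The partners of VE-1 were measured in its absence. *ve-2* was at 66.1, 24.3, 43.5 and 29.7 CPM in S and at 32.3 and 22.6 CPM in A15 (log2FC −0.57, adjusted *P* = 0.273). *lae-1* was at 25.6, 54.8, 47.1 and 48.8 CPM in S and at 143 and 154 CPM in A15. The stages did not overlap and the adjusted *P* value was 0.000315, but the log2FC of 1.75 did not reach the threshold of 2. *vos-1*, which encodes a further velvet protein, was at or under 0.778 CPM in any of the 6 libraries (log2FC 1.87, adjusted *P* = 0.125). None of the 8 methyltransferase genes that the study chose on these samples, *lae-1* included, was called in the edgeR fit of 16 libraries, and that list is not independent evidence of a direction. DESeq2 on the same libraries and edgeR on all 24 called 1 of them lower. NCU10101 of this list varied most within S, at 192, 29.6, 136 and 11 CPM, and was at 2.17 and 1.77 CPM in A15 (log2FC −5.54, adjusted *P* = 0.00198). NCU05855 had no counts in any of the 6 libraries and was at 2.23 and 2.05 CPM in A15 of the wild type. Of 9 tested genes for pheromones, mating type and fruiting bodies, 3 rose, against 9.27% of all genes tested. The mating type gene *mat A-1* went from 0.14 to 0.417 CPM to 12.8 and 36.3 CPM (log2FC 6.26, standard error 0.49, adjusted *P* = 3.54e-07). *asd-3* was at or under 3 counts in S and at 18.6 and 4.31 CPM in A15 (at least 44.1-fold higher by the mean of A15). The third was *asd-4*, a GATA factor gene known from ascus development (log2FC 2.10). The call of *asd-4* was lost without A15 replicate 2 or S replicate 1 or 3. The part of the fruiting body markers in these results was not tested.

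Genes that rose were often neighbors. Of the 764, 235 (30.8%) had a gene that rose directly beside them on the chromosome, compared with 12.7% of the other genes tested, and for the genes that fell the shares were 10.7% and 4.21%. These are descriptions without a test. There were 23 runs of at least 3 neighboring genes that rose and none of genes that fell. The longest, of 6 genes, spanned NCU05883 to NCU05888 on chromosome VII (4157036 to 4172944). A run of 5 on chromosome IV (1352350 to 1367002) held NCU07916 to NCU07920, and another of 5 on chromosome VII (1109380 to 1154951) held *gh18-11*. In a run of 3 on chromosome II (3801521 to 3811766), *fl* lay between NCU08724 and NCU08727. The share of tested genes that rose was 7.16% on chromosome I, 12.2% on VI and 13.8% on VII, and none of the 27 mitochondrial genes tested was called.

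The same stages were compared in the wild type to ask whether conidiation of the mutant differed. In the wild type, 460 genes rose (5.58% of the genes tested) and 40 fell (0.485%). Of the genes that rose in the mutant, 354 were also called in the wild type, which is 46.3% of the mutant list and 77% of the wild-type list. The 35 genes that fell in both strains were 17.1% of the mutant list and 87.5% of the wild-type list. All but 2 of the 969 genes called in the mutant had a wild-type log2FC of the same sign. Since these genes were chosen by their change in the mutant, the smaller change of most of them in the wild type is a description only. Over the 764 genes that rose in the mutant, the median log2FC was 4.32 in the mutant against 2.91 in the wild type.

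**Figure D5:**
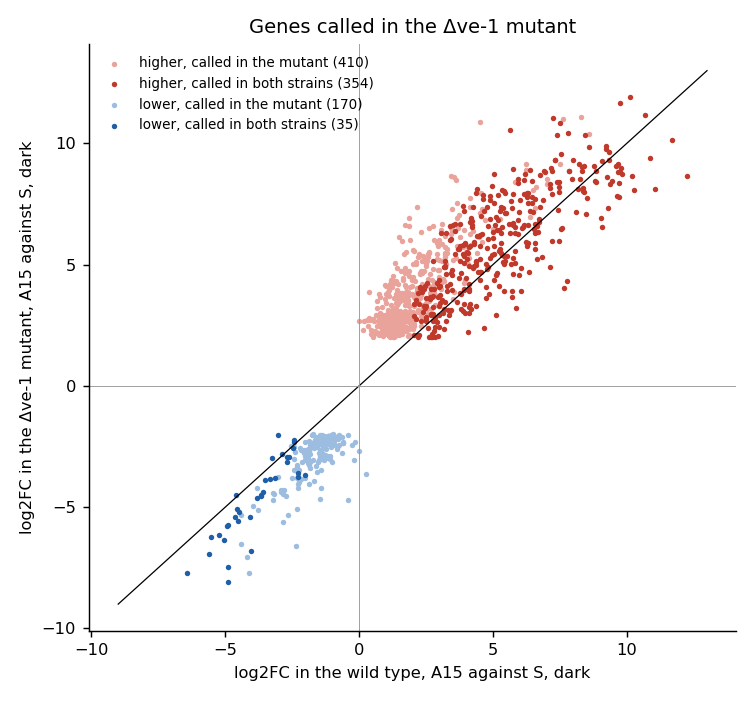
The log2FC of A15 against S in darkness in the wild type (horizontal axis) and in Δ*ve-1* (vertical axis) for the 969 genes called in the mutant, with the line of equal values. Dark points mark the 354 genes that rose and the 35 that fell in both strains.

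The test of the difference between the strains, the interaction of strain and stage, called no gene (0%) with edgeR at these thresholds in the fit of 16 libraries, and 2 genes, both lower in the mutant, in a fit of only the 12 dark libraries. The unadjusted *P* value was under 0.05 for 1047 genes (12.7%), and DESeq2 called 21 genes from these libraries and 17 when it was given the 12 dark libraries alone. At an adjusted *P* value under 0.05, edgeR found 2 genes (0.0243%), both lower in the mutant. NCU05567 (chromosome VI, 1487479 to 1488756) was at 0.78, 0.628, 1.58 and 0.862 CPM in S and at 2.76 and 1.77 CPM in A15 of the mutant, whereas in the wild type it went from 0.662, 0.217, 1.54 and 1.77 CPM in S to 1418 and 1958 CPM in A15. NCU05788 (chromosome VII, 3828325 to 3828939) was at or under 3 counts in both libraries of A15 of the mutant and at 62.6 and 71.9 CPM in those of the wild type. Both encode hypothetical proteins, and the adjusted *P* value of both interactions was 0.0459. The other 4 genes with the smallest *P* values, with no call, were NCU01697, NCU04403, NCU06911 and NCU05248, all with a lower log2FC in the mutant.

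Among the conidiation genes, none of the interactions passed. The log2FC of *fl* was 7.01 in the mutant against 4.54 in the wild type (edgeR, interaction adjusted *P* = 0.217). In the wild type *fl* was at 9.27, 13.7, 28.1 and 26.1 CPM in S and at 456 and 439 CPM in A15, so that the A15 libraries of the mutant lay above those of the wild type. For *csp-1* the log2FC was 4.49 and 2.03 (interaction adjusted *P* = 0.249), and for *cat-1* it was 5.99 and 1.61 (interaction adjusted *P* = 0.15). In the wild type *cat-1* was at 84.7, 56.7, 159 and 452 CPM in S and at 667 and 482 CPM in A15. *eas* changed by a log2FC of 9.65 in the mutant against 9.35 in the wild type, and *acu-6* by 5.28 and 5.76 (edgeR, interaction adjusted *P* = 0.95 and adjusted *P* = 0.89). *vos-1*, which did not pass the test in the mutant, rose in the wild type, from 0.331, 0.0723, 1.05 and 0.253 CPM in S to 9.21 and 13.3 CPM in A15 (interaction adjusted *P* = 0.393). A *P* value above the threshold does not show that the strains act alike.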

How the data were processed

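Poly(A) RNA of *N. crassa* mycelia and aerial tissue was sequenced by the authors as single-end reads, which were trimmed with AfterQC, checked with FastQC and mapped to the NC12 assembly with TopHat2 (version 2.11 in the submitters' processing notes). SeqMonk counted reads on the opposing strand over the exons of merged transcripts. The deposited table holds raw counts for 9758 genes. Reads that fit several genes could be split among paralogs, and their treatment is not given in the sources used here.

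Groups were taken from the sample titles. Counts were tested with edgeR 4.0.16 (R 4.3.3): TMM scaling, a minimum count of 10 in filterByExpr, and quasi-likelihood tests in 1 fit of the 16 S and A15 libraries of both strains, dark and light, with 6 group means and Benjamini-Hochberg adjustment over the 8239 genes tested. Genes were called at a log2FC of 2 or more in size with an adjusted *P* value under 0.001, as in the study. The interaction was the change in the mutant minus that in the wild type. DESeq2 1.42.0, other scalings, filters and sets of libraries, a replicate block and fits without each library were alternatives, and the scripts were tested on simulated data. A level of 3 counts or fewer in every library of a group was taken as a floor. The "at least" folds divide the mean CPM of the higher group by the largest floor of the lower group. A single library of the higher group can therefore lie below the fold given. These folds cover counting error only.

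The 12 largest changes in each direction, the 6 smallest interaction *P* values, the 10 genes with the largest mean CPM in each group and all list members could be named. Members, lists and tests were chosen with earlier results of these data known. The lists for complex I, proteasome, peroxisome, cell wall proteins, polyketide synthases, mannan enzymes, COP9, acetate use, quinate, glycolysis, vitamins, amino acids and purines were added after values were seen. The list of regulators gave NCU09205 as *fld*. The RefSeq gene table names that gene *vad-6* and NCU09739 *fld*, so NCU09739 was added and NCU09205 kept under its own name, which makes 14 members. Symbols come from that table (NC12), which gave 1118 of 9757 matched genes a symbol, and from the study's annotation. In this fit no polyketide synthase gene of 5 tested, no quinate gene of 6 tested and neither of the 2 genes for actin and tubulin was called. DESeq2 on the same libraries, edgeR on all 24 and scaling by library size called 1 quinate gene higher.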

Additional observations from a re-analysis of the deposited data

Results flagged for a closer look

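In S of the mutant, 7 of 103 genes named had 1 library whose distance to the nearest other library exceeded Dixon's limit for a group of 4, which chance gives in about 1 gene in 20. S replicate 1 was the high library for 4 of these: *ve-1* at 18.6 CPM, *ccg-1* at 1714 CPM, *fl* at 17.1 CPM and NCU05788 at 4.42 CPM. S replicate 2 was high for *acon-3* at 4.67 CPM and for *gh18-4* at 3.42 CPM, and S replicate 3 for *ace-8* at 2196 CPM. *fl*, *acon-3*, *gh18-4* and *ccg-1* were called without the library that stood apart, and *ace-8* was not.

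The strains differed in the change from S to A15 for NCU05567, with an interaction log2FC of −9.43, and for NCU05788, with −9.48. Both passed at an adjusted *P* value under 0.05 from edgeR (0.0459 each) and not at 0.001. Both A15 libraries of the wild type lay above both of the mutant for each gene.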

How the results depend on the processing

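Each of the 969 genes called kept its direction in every alternative that gave it a value. The number called was 1456 with DESeq2 on the same 16 libraries (1011 higher, 445 lower), 1776 at an adjusted *P* value under 0.05, 341 with edgeR on only the 6 libraries compared (320 higher, 21 lower), and 502 with S replicates 1 and 2 only, an alternative chosen after seeing the data. Leaving out 1 library gave between 608 (without A15 replicate 2) and 1007 (without S replicate 1) genes, with 72 to 220 lower in A15. RLE size factors (990), no filter (1013) and leaving out the reads of *eas* (979) changed little. Scaling by library size alone gave 937 genes higher and 162 lower, and moved the median log2FC of all genes from 0.10 to 0.36, so changes are relative to that median. The interaction gave 21 genes with DESeq2 on 16 libraries, 17 on the 12 dark libraries, 2 with edgeR on these 12 and 2 at an adjusted *P* value under 0.05, and 0 without any 1 library. Same-numbered S and A15 libraries correlated across genes with *r* = 0.0806 and 0.248, and the replicate block gave 664 genes in 16 libraries and 651 in 6. The labels give these samples a shared number and no shared origin.

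The sign of genes that were not called moved. *pma-1* had a log2FC of −0.0077 without the reads of *eas*, and between −0.79 and 0.59 with 1 library left out. This range was −1.45 to 0.15 for *hex-1*, −0.52 to 0.66 for *ccg-15* and −1.94 to 0.18 for *ve-1*, and *cat-3* was at 0.057 with the replicate block. The causes of these differences were not tested. With 2 libraries of A15, smaller changes, and most falls, depend on each of them, and 1349 genes at or under 3 counts in all 6 libraries were below what this depth can show.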
